A study of Mus musculus with 12 samples.

Results

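The double-stranded RNA sensors described here are 7 mouse genes, taken from a fixed list of names and matched by Ensembl identifier among the 48526 genes counted: Ifih1, Ddx58, Dhx58, Mavs, Tlr3, Eif2ak2 and Zbp1. All 7 were found and all 7 passed the filter on low counts in every comparison. They were followed through 12 libraries of epithelial cells of 4 adult female mice aged 3 months; the titles call the cells whole intestine, and the protocol gives the proximal small intestine as their source. In 2 animals the lysine acetyltransferase genes Kat2a and Kat2b were deleted (double knockout, DKO) with tamoxifen at 100 mg/kg, injected into the peritoneum on each of 4 days in ethanol and corn oil. The 2 control animals received the same solvent without tamoxifen. Epithelium was taken 2 days later. The effects of genotype and of tamoxifen cannot be told apart, since only DKO animals received the drug. The recombinase, the promoter that drives it and the alleles carried by the controls are not given in the sources used here. Each animal gave an unselected input library and a pulldown library with each of J2 and K1, antibodies that bind double-stranded RNA whatever its sequence, so the design asked which RNAs are bound in DKO and control epithelium.

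Cells detect double-stranded RNA through receptors in the cytosol and in endosomes. MDA5 (gene Ifih1) and RIG-I (Ddx58) are cytosolic helicases that, once bound to RNA, signal through the adaptor MAVS on mitochondria to the kinase TBK1 and the transcription factors IRF3 and IRF7, which switch on interferon genes; LGP2 (Dhx58) is a related helicase that lacks the signalling domains and tunes the other two. TLR3 reads double-stranded RNA in endosomes and signals through TRIF (Ticam1), PKR (Eif2ak2) stops translation by phosphorylating eIF2 alpha, and ZBP1 binds left-handed RNA and recruits RIPK3, which can kill the cell through MLKL. MAVS itself is an adaptor and not a receptor for RNA. Most of the other members are themselves genes induced by interferon, and intestinal epithelium is a tissue in which TLR3 and the cytosolic receptors are known to respond to virus.

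Bases before the start of a gene as RefSeq places it are shown for Ddx58 and Tlr3, which hold a match to a motif of interferon regulatory factors, and for Ifih1, which rose most in input among the genes with an entry, and Mavs, which fell. The sequences come from RefSeq (GRCm38.p6), which had an entry for 5 of the 7 genes; Dhx58 and Zbp1 had none. Only bases outside GENCODE exons are printed, on the strand of the gene: chr2:62646256-62646505 (minus strand) for Ifih1, chr4:40239829-40240075 (minus) for Ddx58, chr2:131233813-131234062 (plus) for Mavs and chr8:45410381-45410452 (minus) for Tlr3. Capitals mark the motif, AANNGAAA, on either strand.
Ifih1: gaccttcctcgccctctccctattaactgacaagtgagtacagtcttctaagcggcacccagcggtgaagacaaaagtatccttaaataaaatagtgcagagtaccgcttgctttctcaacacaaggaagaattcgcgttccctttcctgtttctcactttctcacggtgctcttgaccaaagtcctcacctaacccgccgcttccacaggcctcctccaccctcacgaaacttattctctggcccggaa
Ddx58: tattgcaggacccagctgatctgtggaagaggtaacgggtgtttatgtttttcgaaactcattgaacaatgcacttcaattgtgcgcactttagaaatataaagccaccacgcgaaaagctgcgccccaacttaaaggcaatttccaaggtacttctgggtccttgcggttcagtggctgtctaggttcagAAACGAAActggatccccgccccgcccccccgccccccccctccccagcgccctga
Mavs: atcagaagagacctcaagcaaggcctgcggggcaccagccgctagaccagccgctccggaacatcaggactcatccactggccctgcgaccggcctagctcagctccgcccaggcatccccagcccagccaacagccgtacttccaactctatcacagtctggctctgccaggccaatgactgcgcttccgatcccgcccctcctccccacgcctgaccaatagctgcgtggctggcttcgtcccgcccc
Tlr3: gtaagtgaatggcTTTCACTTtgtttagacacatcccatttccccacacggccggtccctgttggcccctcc
The RefSeq start is not always the gene end given below from GENCODE: that of Ddx58 lies just inside the GENCODE first exon, and that of Tlr3 lies well inside the GENCODE gene, so that the Tlr3 stretch is intronic there. In both Ddx58 and Tlr3 the match lay 59 to 52 bases before the RefSeq start, on the gene's strand in Ddx58 (AAACGAAA) and on the opposite strand in Tlr3 (AAGTGAAA). AANNGAAA occurred in the 250 bases before the start of 21.3% of 32851 RefSeq promoters. The core of the longer interferon-stimulated response element, which always contains AANNGAAA, was in none of the 5 windows and in 2.98% of all promoters. The gamma-activated site TTCNNNGAA was in the Eif2ak2 window alone, 178 to 170 bases before the RefSeq start (TTCCCAGAA), and in 7.02% of all promoters. The Eif2ak2 window is covered by an exon of an antisense gene and is not printed. A match describes letters only.

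The targeted genes were lower in the DKO animals: in input, the control animals had 359 and 343 counts of Kat2b against 118 and 114 counts, and 222 and 228 counts of Kat2a against 84 and 148. Gene-assigned counts ranged from 10307281 to 11474107 in input and from 13308021 to 16139531 in control pulldowns, but only from 2220291 to 5826361 in DKO pulldowns. Reads aligned to several places made up 5.54% to 6.56% of listed reads in control pulldowns and 15.8% to 46.7% in DKO pulldowns, so values from the DKO pulldowns rest on the fewest counts. The 10 epithelial markers summed to 7611 to 8933 CPM (counts scaled to a common library size) in input, and their log2 fold changes between genotypes lay between -0.49 and 0.43, with adjusted p between 0.0608 and 0.983 (edgeR). Of 14 leukocyte markers tested in input, Csf1r was higher in DKO (2.74) and 7 were lower, against 18.8% of all genes higher and 17.1% lower, among them Cd3e (-0.97) and Cd3g (-1.12); summed without Cd74, which epithelium also makes, they stood at 132 and 127 CPM in control and 105 and 86.1 CPM in DKO. The 10 stroma and vessel markers summed to 2.94 to 12.1 CPM in input, and to 4.51 to 40.3 CPM in control pulldowns against 32.9 to 195 CPM in DKO pulldowns. The part of these cells in the results below was not tested. In bulk RNA, fewer cells of a type and less RNA per cell cannot be told apart.

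Transcripts of the RIG-I-like helicases were more abundant in DKO input than in control input in every animal. Ifih1 (chromosome 2, 62595798 to 62646255, GRCm38) encodes MDA5, the receptor for long double-stranded RNA. It stood at 104 and 80.8 CPM in control input and at 440 and 292 CPM in DKO input. The groups did not overlap, and DKO was 3.99-fold higher (log2 fold change 2.00, SE 0.23, adjusted p = 7.44e-04, edgeR quasi-likelihood test). Ddx58 (chromosome 4, 40203773 to 40239828) encodes RIG-I, which prefers short ends with a triphosphate. It had 71.8 and 65.0 CPM in control and 271 and 187 CPM in DKO. Both DKO animals were above both controls, by 3.37-fold (1.75, SE 0.20, adjusted p = 6.88e-04).

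Dhx58 (chromosome 11, 100694884 to 100704271), which encodes LGP2, rose most of the 7. It had 8.25 and 6.78 CPM in control input, from 101 and 92 counts, and 110 and 70.4 CPM in DKO input, from 1275 and 902 counts. DKO was 12.1-fold higher (3.60, SE 0.25, adjusted p = 1.40e-04). In input, the length-scaled level of Ifih1 was 5.04 and 4.77 times that of Dhx58 in the control animals and 1.60 and 1.66 times in the DKO animals. The receptor MDA5 and its relative LGP2 were thus closer to parity at the RNA level in DKO. An antisense gene, Dhx58os, overlaps 4.31% of the exon bases of Dhx58, and counts made without strand cannot separate them.

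Mavs, the adaptor on which both helicases converge, moved the other way. The gene (chromosome 2, 131234063 to 131248025, plus strand) had 99.0 and 89.7 CPM in control input and 36.3 and 58.8 CPM in DKO input. Both DKO animals were below both controls, with the lower value in DKO animal 1, and the level was 1.98-fold lower (log2 fold change -0.98, SE 0.21, adjusted p = 0.00968, edgeR). Per kilobase of exon, Mavs was 2.33 and 2.71 times as abundant as Ifih1 in the control animals and 0.201 and 0.491 times as abundant in the DKO animals. Against Ddx58 the ratio was 2.91 in both control animals, and 0.282 and 0.663 in DKO. Per kilobase of annotated exon, adaptor RNA exceeded receptor RNA in control epithelium, and the order was turned in DKO. The size of these ratios depends on the exon length used.

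The sensors that do not use MAVS also rose in DKO input. Tlr3 (chromosome 8, 45395665 to 45411080), the endosomal receptor, had 38.3 and 31.8 CPM in control and 75.5 and 59.0 CPM in DKO, the smallest rise of the 6 at 1.93-fold (0.95, SE 0.17, adjusted p = 0.00437, edgeR). The antisense gene Gm45542 overlaps 7.32% of its exon bases. Eif2ak2 (chromosome 17, 78852564 to 78882573) encodes PKR, the kinase that shuts down translation. It had 44.1 and 33.1 CPM in control and 136 and 109 CPM in DKO, without overlap. DKO was 3.20-fold higher (1.68, SE 0.18, adjusted p = 6.18e-04), and antisense genes (Gm26637 and n-R5s29) overlap 4.32% of its exon bases.

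Zbp1 (chromosome 2, 173206612 to 173218923), the sensor of left-handed RNA, had the most unequal controls. Control animal 1 had 109 CPM and control animal 2 had 39.4 CPM, a ratio of 2.77, while the DKO animals had 353 and 328 CPM. Both DKO animals were above both controls, by 4.62-fold (log2 fold change 2.21, SE 0.40, adjusted p = 0.00517, edgeR). The size of the rise depended on which control was used: 3.11 on the log2 scale without control animal 1 and 1.64 without control animal 2, both past the threshold. The same control animal stayed higher in its J2 library (98.6 against 52.0 CPM) and in its K1 library (111 against 47.7 CPM). In input, the interferon-induced genes Usp18 (16.2 against 7.89 CPM), Ddx60 (89.7 against 49.8) and Nlrc5 (28.4 against 10.4) were also higher in control animal 1. The control animals differed less in Irf7 (97.7 and 77.1 CPM), Adar (70.8 and 59.9), Trim25 (179 and 156) and Ddx58 (71.8 and 65.0). Leukocyte markers without Cd74 were at 132 and 127 CPM in these animals. The part of interferon-induced genes or of leukocytes in the Zbp1 result was not tested.

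In input, then, 7 of 7 sensors passed the test: 6 higher in DKO and 1, Mavs, lower. Over all 15088 genes tested, 35.9% passed, 18.8% higher and 17.1% lower, and the median log2 fold change was 0.00 against 1.75 over the sensors. Genes are not replicates of a condition, so the count describes these 7. All 7 calls kept their direction and stayed past the threshold in each of the 12 alternative analyses run, including leaving out any 1 animal.

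**Figure D1:**
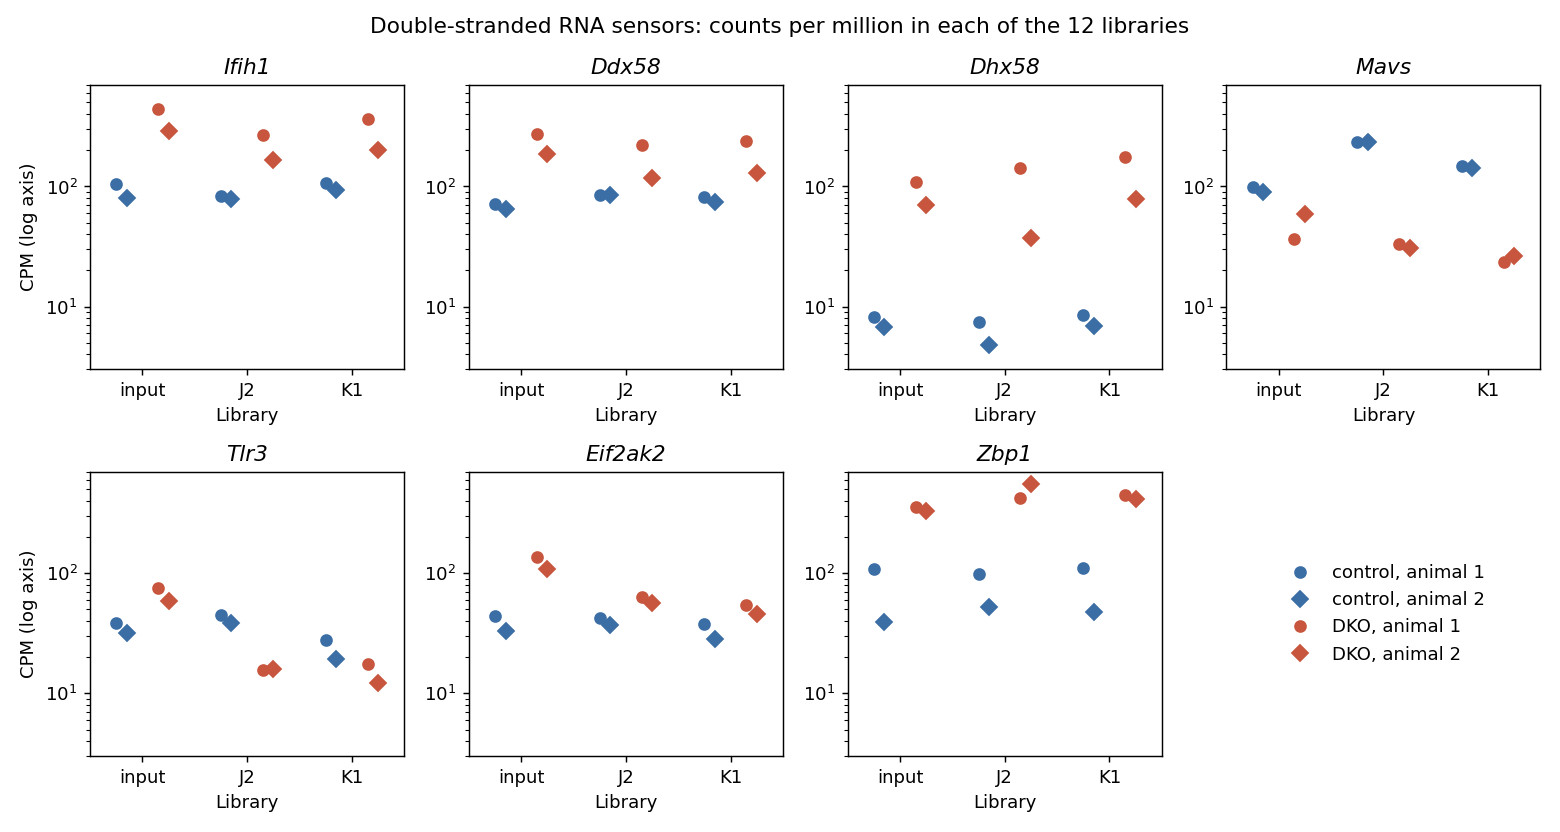
CPM of each sensor (log axis) in input, J2 and K1 libraries, with control animals in blue, DKO animals in red, circles for animal 1 and diamonds for animal 2 (animals 1 and 2 of one genotype are not those of the other). In input the DKO points lie above the control points for every gene except Mavs, where they lie below, and for Tlr3 the order turns in J2 and K1, from 45.0 and 38.8 CPM in control J2 to 15.6 and 16.0 CPM in DKO J2.

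Compared per kilobase of annotated exon, the order of the sensors differed between the genotypes. The length used is all annotated exon bases of a gene. It exceeds the longest transcript most for Ddx58 (7050 against 3874 bases) and Ifih1 (8165 against 5470), and little for Mavs (3345 against 3057). The order and the ratios between genes therefore depend on this choice, and the longest transcript was not tried. In control input Mavs was highest, at 28.2 ± 1.98 CPM per kb (SD, n = 2), followed by Zbp1 at 21.0 ± 13.9, Ifih1 at 11.3 ± 1.99, Ddx58 at 9.70 ± 0.673, Eif2ak2 at 7.55 ± 1.52, Tlr3 at 6.73 ± 0.888 and Dhx58 at 2.30 ± 0.317 CPM per kb. The animals' ranges overlapped between Mavs and Zbp1, Zbp1 and Ifih1, Ifih1 and Ddx58, and Eif2ak2 and Tlr3, so these neighbours were not separated beyond the spread between animals, while those of Ddx58 and Eif2ak2 and of Tlr3 and Dhx58 did not overlap. Within each control animal the order was the same for all neighbours except Mavs and Zbp1, which changed places in control animal 1. In DKO input Zbp1 was highest, at 96.5 ± 4.98 CPM per kb, followed by Ifih1 at 44.9 ± 12.8, Ddx58 at 32.5 ± 8.44, Dhx58 at 27.6 ± 8.63, Eif2ak2 at 24.0 ± 3.74, Mavs at 14.2 ± 4.77 and Tlr3 at 12.9 ± 2.25 CPM per kb. Here the ranges of Zbp1 and Ifih1 and of Eif2ak2 and Mavs did not overlap, and those of the other neighbours did. Within each DKO animal the order held for all neighbours except Mavs and Tlr3, which changed places in DKO animal 1. Mavs thus went from the top of the order in control to the lower end in DKO, and Dhx58 left the bottom.

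**Figure D2:**
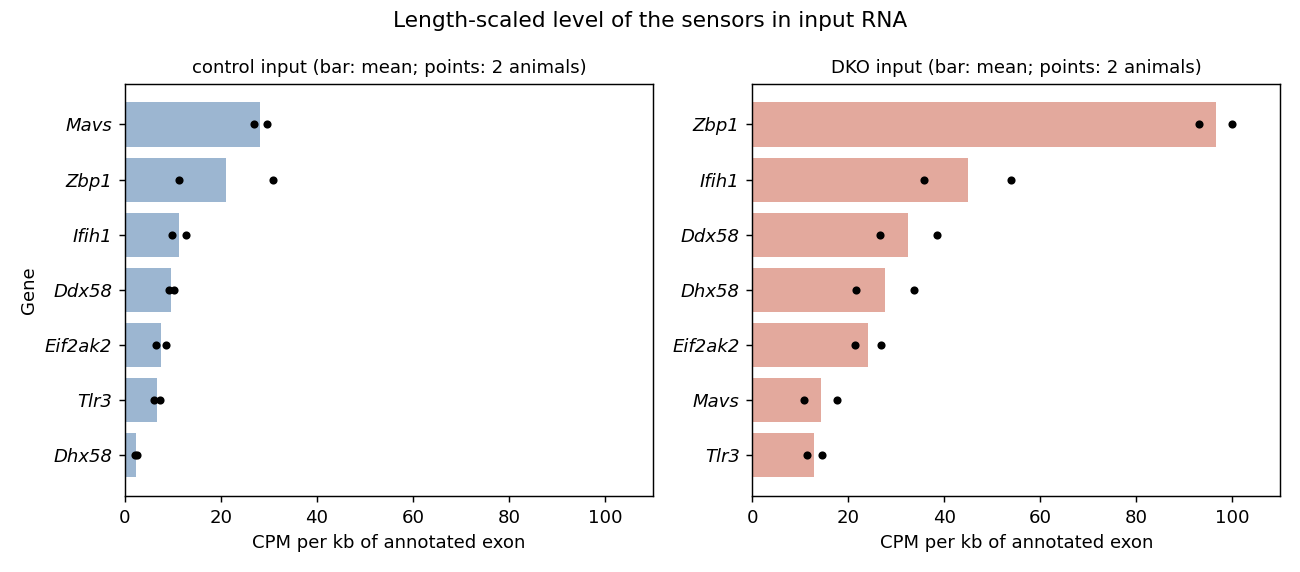
Length-scaled level of each sensor in input (CPM per kb of annotated exon) in control (left) and DKO (right), sorted by the mean, with bars for the mean and points for the 2 animals. Mavs leads in control at 28.2 and Zbp1 in DKO at 96.5, and both panels use one axis that starts at 0.

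In RNA recovered with the antibodies, the same question was asked within each kind of pulldown. The 12 libraries include no pulldown with a control antibody, so bound RNA and RNA carried along cannot be told apart. In J2, 3 of 7 sensors passed the test, against 12.2% of 13181 genes tested (6.02% higher and 6.16% lower): Dhx58 and Zbp1 were higher in DKO and Mavs was lower. Dhx58 had 7.41 and 4.81 CPM in control J2 and 142 and 37.4 CPM in DKO J2, so that the DKO animals differed 3.81-fold from each other but did not overlap with the controls (log2 fold change 4.14, SE 0.71, adjusted p = 0.0330, edgeR). Zbp1 had 98.6 and 52.0 CPM in control J2 against 423 and 549 CPM in DKO J2 (3.00, SE 0.57, adjusted p = 0.0382). Mavs had almost equal values within each genotype, 233 and 235 CPM in control J2 and 33.3 and 31.0 CPM in DKO J2. The fit, scaled within J2, gave a 5.88-fold lower level (-2.56, SE 0.36, adjusted p = 0.0287, edgeR). These calls rest on few libraries. Those of Mavs and Zbp1 were lost without control animal 1 and without control animal 2, and that of Dhx58 without control animal 2. Leaving 1 control animal in the fit also made calls over all genes far fewer, so these losses are not particular to the sensors. The log2 change stayed between -2.73 and -2.48 for Mavs and between 2.54 and 3.49 for Zbp1 in the 12 alternatives. Over all 12 alternatives the adjusted p ran from 1.05e-06 to 0.220 for Mavs, from 2.68e-06 to 0.642 for Zbp1 and from 7.16e-11 to 0.0788 for Dhx58. The Dhx58 change was 2.91 without DKO animal 1 and 4.84 without DKO animal 2.

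The other 4 sensors did not pass in J2. Ifih1 was at 82.7 and 78.0 CPM in control and 269 and 165 CPM in DKO (1.72, SE 0.40, adjusted p = 0.0518, edgeR). Ddx58 was at 84.6 and 85.6 against 221 and 118 CPM (1.28, SE 0.41, adjusted p = 0.0931), and Eif2ak2 at 42.7 and 36.8 against 63.9 and 56.6 CPM (0.90, SE 0.30, adjusted p = 0.101). Tlr3, which rose in input, was at 45.0 and 38.8 CPM in control J2 and 15.6 and 16.0 CPM in DKO J2 (-1.10, SE 0.33, adjusted p = 0.0795), the latter from 68 and 57 counts.

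In K1, 6 of 7 sensors passed the test, 5 higher in DKO and Mavs lower, against 27.1% of 12888 genes tested (13.2% higher and 13.9% lower). Dhx58 rose most again, from 8.57 and 6.89 CPM in control K1 to 175 and 78.0 CPM in DKO K1 (4.33, SE 0.40, adjusted p = 0.00182, edgeR), with 3.71 when DKO animal 1 was left out. Zbp1 was at 111 and 47.7 CPM in control and 446 and 412 CPM in DKO (2.77, SE 0.44, adjusted p = 0.00631), and at 2.27 with an adjusted p of 0.0609 without control animal 2 and 3.46 without control animal 1. Ifih1 rose by 1.81 (SE 0.33, adjusted p = 0.00925), from 106 and 94.3 to 367 and 202 CPM, and Ddx58 by 1.54 (SE 0.31, adjusted p = 0.0136), from 81.3 and 74.0 to 237 and 129 CPM. For both helicases the call was lost without control animal 1 (adjusted p 0.111 for Ifih1 and 0.148 for Ddx58) and without control animal 2 (0.140 and 0.173), the highest of the 12 alternatives, the lowest being 1.63e-05 and 1.10e-04. Eif2ak2 was at 37.8 and 28.4 CPM in control and 54.3 and 45.9 CPM in DKO (0.93, SE 0.27, adjusted p = 0.0396), a call lost in 6 of 12 alternatives, among them those without control animal 1 (0.286) and without control animal 2 (0.521), in a range from 0.00739.

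Mavs fell in K1 from 148 and 143 CPM in control to 23.5 and 26.6 CPM in DKO. The fit, scaled within K1, gave a 4.63-fold lower level (-2.21, SE 0.27, adjusted p = 0.00299, edgeR). Mavs kept its call in all 12 alternatives, as Dhx58 did. Tlr3 was at 28.0 and 19.2 CPM in control K1 and 17.4 and 12.2 CPM in DKO K1 (-0.34, SE 0.33, adjusted p = 0.476), where DKO animal 2 had 29 counts.

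**Figure D3:**
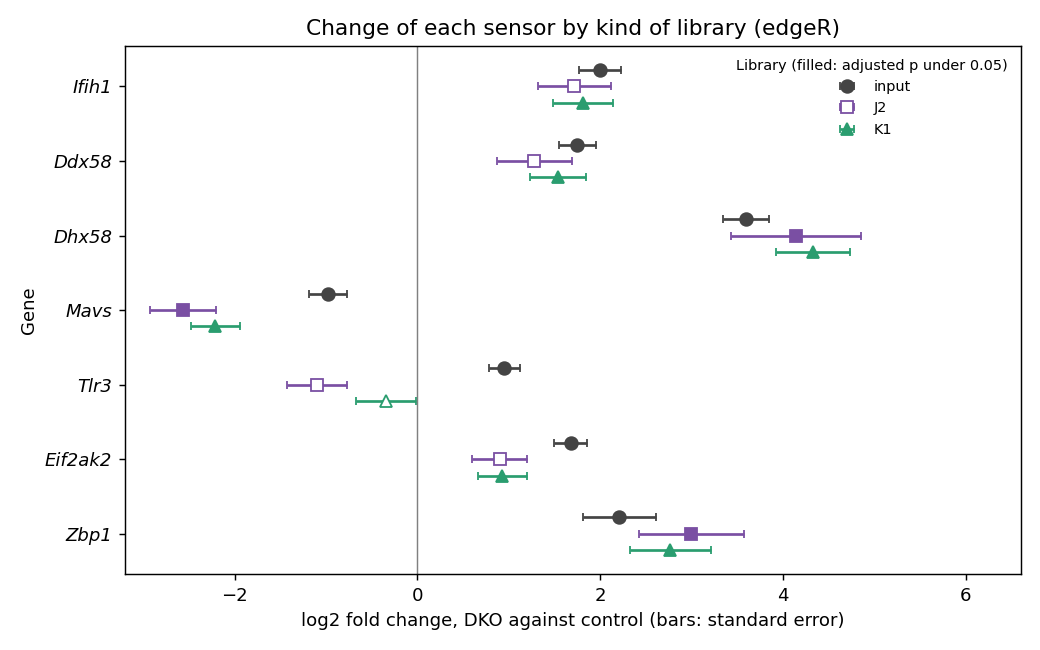
Log2 fold change of each sensor between DKO and control in input, J2 and K1 libraries (edgeR), with bars for the standard error and filled symbols for an adjusted p under 0.05. Dhx58 lies furthest to the right in all 3 kinds of library, Mavs lies to the left in all 3, from -0.98 in input to -2.56 in J2, and Tlr3 is right of 0 in input only.

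Pulldown was then set against input, first within each genotype. In control animals the RNA of 6 of the 7 sensors was neither enriched nor depleted in J2 beyond the test's threshold, where 29.8% of 15923 genes passed. Mavs was the exception: J2 exceeded input in both animals, by 1.23 and 1.39 on the log2 scale, and the test gave 1.24 (SE 0.29, adjusted p = 0.0154, edgeR). Without TMM scaling this was 0.87 (adjusted p = 0.0905), and without control animal 1 or control animal 2 the adjusted p was 0.422 or 0.476, the highest of 12 alternatives whose lowest was 2.36e-05. In K1 against input in control, 0 of 7 sensors passed, against 39.8% of 15908 genes (19.7% higher and 20.1% lower); 2 had an unadjusted p under 0.05, and DESeq2 called 1. Those 2 were Mavs (0.55, SE 0.24, adjusted p = 0.0933) and Tlr3 (-0.64, SE 0.24, adjusted p = 0.0577). With the animal as a block both passed, at 0.0345 for Mavs and 0.0102 for Tlr3.

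In DKO animals, Tlr3 RNA was depleted in both pulldowns relative to input. The J2 library was below input by 2.26 and 1.87 on the log2 scale in the DKO animals, while in the control animals it was above by 0.23 and 0.29. For J2 against input in DKO the test gave -1.85 (SE 0.25, adjusted p = 0.00381, edgeR), and Tlr3 was the 1 of 7 sensors that passed, against 25.7% of 15923 genes (13.4% lower); without control animal 1 the adjusted p was 0.0554, the highest of 12 alternatives whose lowest was 1.08e-08. Eif2ak2 was at -0.79 (SE 0.26, adjusted p = 0.0584), and passed in 7 of 12 alternatives. In K1 the DKO animals were below input by 2.11 and 2.25, and the controls by 0.45 and 0.72. Of the 7 sensors 3 were lower in K1 than in input in DKO, against 21.0% of 15908 genes lower and 35.6% passing in either direction. They were Tlr3 (-2.06, SE 0.27, adjusted p = 6.23e-04), Eif2ak2 (-1.19, SE 0.24, adjusted p = 0.00445) and Mavs (-0.84, SE 0.26, adjusted p = 0.0308). The Mavs call was lost without control animal 1 or control animal 2 (0.105 each) and without DKO animal 2 (-0.55, adjusted p = 0.0520), in a range from 0.00604 over 12 alternatives. RNA of Ifih1, Ddx58, Dhx58 and Zbp1 did not pass in either pulldown in DKO: their log2 differences lay between -0.52 and 0.75.

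The difference between the genotypes in enrichment itself was tested as an interaction. With J2, only Tlr3 passed among the sensors, against 2.71% of 15923 genes (0.772% higher and 1.94% lower in DKO): the difference of enrichment was -2.04 on the log2 scale (SE 0.34, adjusted p = 0.0349, edgeR). Mavs was close, with J2 minus input values of 1.23 and 1.39 in the control animals against -0.12 and -0.92 in the DKO animals. Its estimate was -1.57 (SE 0.41, adjusted p = 0.0750). With the animal as a block, Tlr3 stayed at -2.04 with an adjusted p of 0.0712, and 0 of all 15923 genes passed with edgeR (4074 had an unadjusted p under 0.05). The Tlr3 call was also lost without control animal 1 (0.738), without control animal 2 (0.676) and without TMM scaling (0.0526), within a range of 2.88e-05 to 0.738 over the 12 alternatives.

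With K1, Mavs and Tlr3 passed, against 5.47% of 15908 genes (4.10% lower in DKO), and the median over all genes was -0.20. K1 exceeded input for Mavs in both control animals (0.57 and 0.67) and lay below it in both DKO animals (-0.62 and -1.14), a difference of -1.39 (SE 0.36, adjusted p = 0.0499, edgeR). For Tlr3 the difference was -1.42 (SE 0.36, adjusted p = 0.0498). Both adjusted values lay just under 0.05, and they were over it in 7 of 12 alternatives for Mavs (range 0.00475 to 0.644) and in 6 of 12 for Tlr3 (0.00597 to 0.644), including those without control animal 1 (0.644 for each) and without control animal 2 (0.474 and 0.380). Eif2ak2 had a difference of -0.90 (SE 0.33, adjusted p = 0.136), with an adjusted p of 0.0436 with the animal as a block, where Mavs and Tlr3 also passed (0.0110 and 0.00597). The estimates for the helicase genes and Zbp1 lay between -0.45 and 0.79 over both antibodies, with standard errors of 0.42 to 0.80. These comparisons share input and pulldown libraries with those between genotypes above and are not separate evidence.

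**Figure D4:**
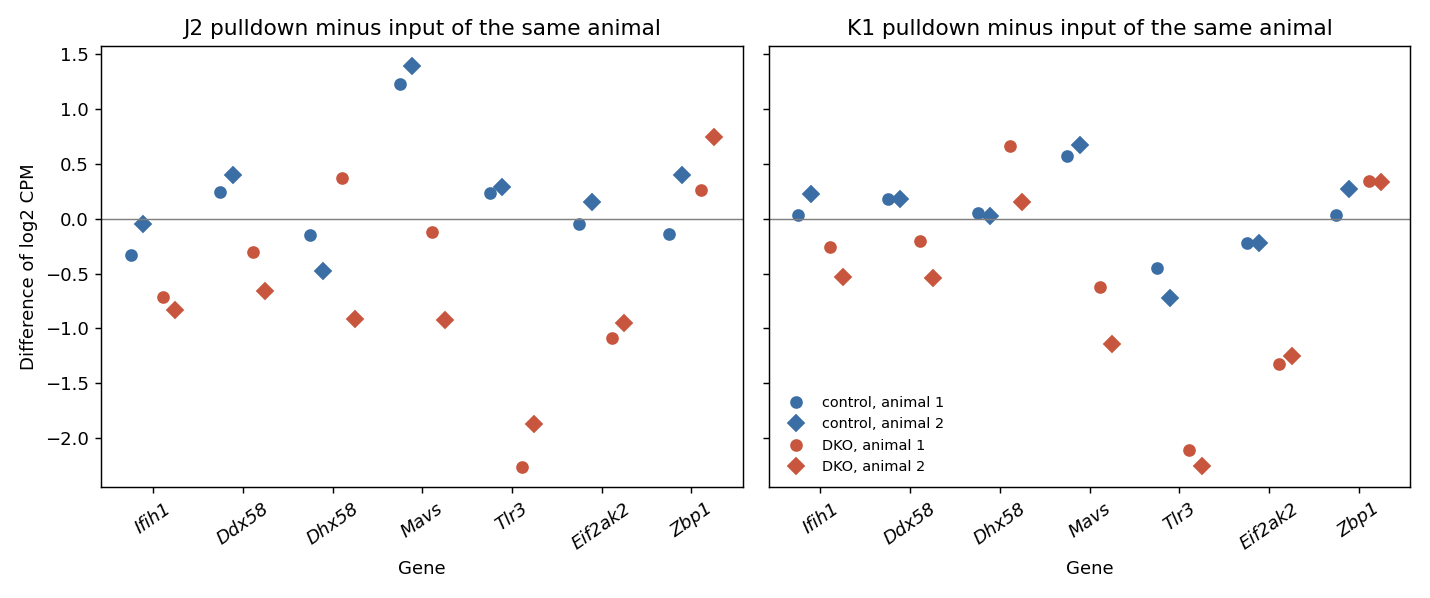
Pulldown minus input of the same animal, as a difference of log2 CPM, for J2 (left) and K1 (right), with control animals in blue and DKO animals in red. Tlr3 lies between -0.72 and 0.29 in control and between -1.87 and -2.26 in DKO, and Mavs lies above 0 in control and below 0 in DKO with both antibodies.

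Genes that act with the sensors were taken in 8 lists by role, 82 genes in all, of which 70 were tested in input. In DKO input 35 rose, 8 fell and 27 did not pass, with a median of 0.46 against 0.00 over all genes, of which 18.8% rose and 17.1% fell. Among 11 tested genes listed as cofactors of RIG-I and MDA5, 6 rose and 2 fell. The list was not sorted by whether a gene activates or restrains these receptors. Ddx60, a helicase that aids RIG-I, rose by 2.81 (SE 0.31), and the ubiquitin ligases Trim25, which activates RIG-I, and Rnf135 rose by 1.36 and 1.28. Trim65, the ligase that acts on MDA5, fell by 1.20 on the log2 scale (SE 0.20, adjusted p = 0.00370, edgeR). Among 18 genes downstream of MAVS, 9 rose and 2 fell. Irf7 rose from 1195 and 1046 counts in control to 7061 and 7114 in DKO (2.74, SE 0.17), while Irf3, its constitutive relative, was at 0.14 (adjusted p = 0.487). The NF-kappaB subunit Rela rose by 1.19, its inhibitor Nfkbia by 1.13, and the ubiquitin ligase Traf6 by 0.97.

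Of 12 genes listed under restraint of MAVS signalling, 6 rose and 2 fell, against 18.8% of all genes higher and 17.1% lower. The list is not confined to genes that act on MAVS itself. Usp18, which blocks signalling from the interferon receptor, rose by 4.04 (SE 0.46) from 198 and 107 counts to 3114 and 1568. Nlrc5 rose by 2.62, Tnfaip3, the deubiquitinase A20, by 1.79 and Nlrx1 by 1.37. All 5 genes around ZBP1 passed: Mlkl (2.31), Ripk3 (2.26), Casp8 (1.40) and Adar (1.72), the editor of double-stranded RNA, rose, and Casp6 fell. Among 8 genes around PKR, 2 rose and 1 fell, a share near the 35.9% of all genes that passed and so no result about this list. Ppp1r15a, which recruits the phosphatase that reverses the action of PKR, rose by 2.19 (SE 0.25), Tarbp2 by 0.49, and Dnajc3, an inhibitor of PKR, fell by 0.49 on the log2 scale. The PKR substrate Eif2s1 was at 0.26 (adjusted p = 0.314), and the sister kinases Eif2ak1, Eif2ak3 and Eif2ak4 lay between -0.22 and 0.30 without passing.

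Among 7 tested genes that are partners of TLR3 or other Toll-like receptors, 3 rose, against 18.8% of all genes higher and 35.9% passing. Of the partners only Unc93b1, which carries TLR3 to endosomes, rose (0.75), and Tlr2 (2.90) is another Toll-like receptor. The TLR3 adaptor Ticam1 was at 0.20 (adjusted p = 0.216, edgeR). Of the tested interferon receptor genes, Ifnar2 (1.09) and Ifnlr1 (0.68) rose, and Ifnar1 and Il10rb did not pass. The interferon genes on the list were at or near 0. Ifnb1 had 0 counts in all 12 libraries, where an expected count of up to 3 per library can still give 0. Ifna2, Ifna4, Ifne, Ifnl2 and Ifnl3 had at most 7 counts in any library, too few to be tested. The few counts of Ifna2, Ifna4 and Ifnl2 were all in DKO libraries, and those of Ifne and Ifnl3 were in both genotypes. Of 5 tested genes of DNA sensing, 3 rose, among them Sting1 (1.87) and Aim2 (1.17), and Cgas was at -0.38 (adjusted p = 0.471).

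**Figure D5:**
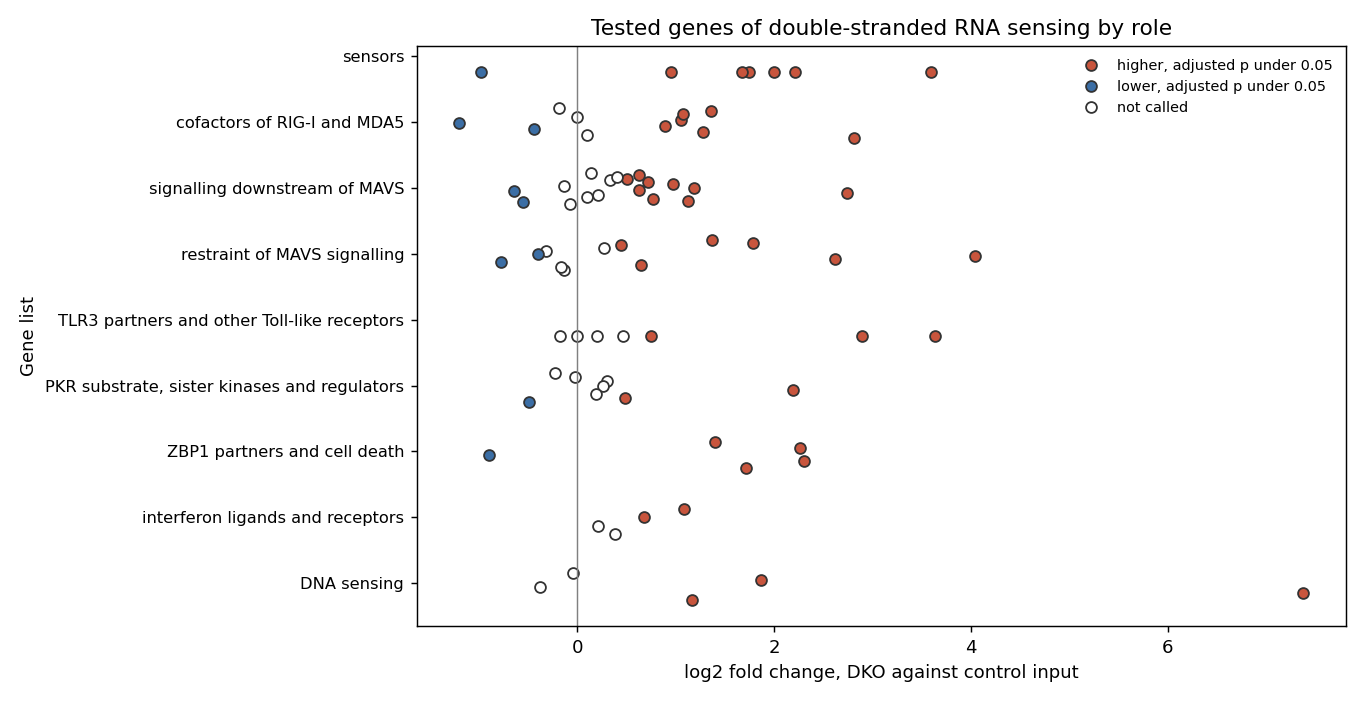
Log2 fold change between DKO and control input for each tested gene of the sensors and of the 8 role lists, red where higher and blue where lower at an adjusted p under 0.05 (edgeR), and white otherwise, with vertical offsets only for legibility. The ZBP1 list has 4 of 5 genes to the right, and the point at 7.38 is Ifi204, with 0 counts in both control inputs and 25 and 15 in DKO, whose fitted value is no bound.

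The same lists were read in the pulldowns. Of 70 genes tested in each kind of pulldown, 14 were higher and 3 lower in J2, against 6.02% and 6.16% of all genes, and 24 were higher and 12 lower in K1, against 13.2% and 13.9% of all genes. In the K1 difference of enrichment 6 of 71 genes were lower in DKO, against 4.10% of all genes, among them Ticam1 (-1.33, SE 0.27, adjusted p = 0.0276, edgeR), the adaptor of TLR3, Rnf125 (-2.28), Il10rb (-1.49) and Traf6 (-1.44). In the J2 difference 2 of 71 genes, Rnf125 (-2.39) and Fadd (-1.99), were lower, and 1, Irf3, was higher (1.74, SE 0.31, adjusted p = 0.0385, edgeR). Over all genes 1.94% were lower and 0.772% higher in the J2 difference, so calls this few are no result about the lists. These calls were lost when a control animal was left out. Without control animal 1, edgeR called 0 of all genes in either difference, although 1062 (J2) and 1270 (K1) had an unadjusted p under 0.05. Without control animal 2 it called 0 with J2 (1220 unadjusted) and 3 with K1, none of them lower, and with the animal as a block it called 0 with J2.

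The shape of each sensor's profile over the 12 libraries was compared with that of 9378 genes with at least 50 counts on average, as the root mean square difference of log2 CPM after centring each gene; the measure is a description, and the libraries share animals and scaling. Ifih1 was nearest to Dusp6 (0.17), Trafd1 (0.22) and Ddx58 (0.26), and Ddx58 to Tnfaip3 (0.16), Helz2 (0.17) and Hsd17b7 (0.17). Dhx58 was nearest to Hk1 (0.27), Isg15 (0.30) and C4b (0.33), and Zbp1 to Oasl2 (0.36), Alpk1 (0.38) and Socs1 (0.41). Isg15, Helz2 and Oasl2 are interferon-induced genes. Eif2ak2 was nearest to Ift22 (0.22), Daam1 (0.25) and Fam3b (0.27), Tlr3 to Ceacam1 (0.15), Cul1 (0.26) and Muc4 (0.26), and Mavs to Mob3b (0.20), Aaed1 (0.21) and Dab1 (0.21). Among the sensors themselves, Ifih1 and Ddx58 were the closest pair (0.26) and Dhx58 and Mavs the furthest apart (3.01).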

How the data were processed

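The authors deposited raw whole-number counts per gene, made without strand per the labels. The submitters' processing notes list, without role or order, STAR 2.7.10b, UMI-tools 1.1.4, HTSeq 2.0.2 and other tools, and the builds mm10 and GRCm38.p4. Whether molecular identifiers were used to remove copies is not given in the sources used here, so counting error may understate the error. Rows that name no gene (reads outside genes were 6.76% to 27% of listed reads) were left out. No spike-in is described, so total RNA pulled down cannot be compared.

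Symbols and exon lengths came from GENCODE M21 (GRCm38), which matched 48144 of 48526 identifiers. Tests were two-sided quasi-likelihood tests of edgeR 4.0.16 (R 4.3.3; TMM scaling, filterByExpr with a minimum count of 10, Benjamini-Hochberg over all genes tested, threshold 0.05), in fits of 4 libraries for DKO against control and of 8 for pulldown against input. SE is the absolute log2 fold change over the square root of F. CPM used one TMM scaling over 12 libraries, and log2 CPM a prior count of 2. Each fit had its own TMM scaling, so a fold change can differ from the ratio of the CPM beside it, above all in the pulldowns. Input and pulldown of one animal, matched by the labels' numbers, deviated together (correlation across genes 0.209 to 0.296), so a fit with the animal as a block was run. The p-values rest on the spread between the 2 animals of each group, pooled over the groups of a fit and moderated across genes. In the fits of 8 libraries, input and pulldown of one animal were treated as independent except with the block.

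The sensors and lists were chosen with earlier results of these data known. Named beside them were up to 4 genes per list, those with the largest change among genes past the threshold with a mean of at least 20 counts; Irf3, Ticam1, Eif2s1, the sister kinases, Ifnar1, Il10rb, Casp6, Cgas and Ifi204 were added after their values were seen, as was the search for AANNGAAA. The scripts were tested on simulated data. Alternatives were DESeq2 1.42.0, other scalings, no filter, thinning to equal depth, 1 fit of 12 libraries, the block and leaving out each animal.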

Additional observations from a re-analysis of the deposited data

Results flagged for a closer look

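Enrichment over input differed between the genotypes for 3 combinations of sensor and antibody in the interaction test of edgeR. For Tlr3 with J2 the difference, DKO minus control, was -2.04 (SE 0.34, adjusted p = 0.0349); both DKO animals (-2.26 and -1.87) lay below both controls (0.23 and 0.29). For Tlr3 with K1 it was -1.42 (SE 0.36, adjusted p = 0.0498), with -2.11 and -2.25 in DKO and -0.45 and -0.72 in control. For Mavs with K1 it was -1.39 (SE 0.36, adjusted p = 0.0499), with -0.62 and -1.14 in DKO and 0.57 and 0.67 in control. The DKO pulldowns had 29 to 79 counts of Tlr3 and 63 to 145 of Mavs, and the deepest of them held 5826361 gene-assigned counts against at least 13308021 in control pulldowns. Thinned to equal depth, the adjusted p was 0.0435 for Tlr3 with J2, 0.0464 for Tlr3 with K1 and 0.105 for Mavs with K1.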

How the results depend on the processing

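Each result was recomputed under 12 alternatives. The 7 sensor calls in input held in all of them. The count of changed pathway genes in input was 43, against 16 when all 12 libraries were fitted together and 31 to 47 when 1 animal was left out. Fitted together, the 12 libraries gave 7 changed sensors in J2 in place of 3; leaving out 1 animal gave 0 to 7 in J2 and 2 to 6 in K1. A single animal left in an arm is assumed to vary like the other group. Over all genes, calls between genotypes in the pulldowns became fewer without a control animal and more without a DKO animal.

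For J2 against input, the changed sensors in control fell from 1 to 0 without TMM and were 0 to 2 with 1 animal left out. In DKO they were 2 with DESeq2 size factors, with DESeq2, without a filter and in the fit of 12 libraries, 3 without TMM, and 0 to 6 with 1 animal left out. For K1 against input in control they were 1 with DESeq2 size factors, without TMM, when scaled without mitochondrial and ribosomal RNA genes and with DESeq2, and 0 to 2 with 1 animal left out. For the J2 difference of enrichment they were 0 without TMM, 2 with DESeq2, without a filter and with 12 libraries, and 0 to 3 with 1 animal left out. For the K1 difference they were 0 with DESeq2 size factors, without mitochondrial and ribosomal RNA genes and with 12 libraries, 1 without TMM, with DESeq2 and after thinning, and 0 to 2 with 1 animal left out.

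With the animal as replicate block, the changed sensors were 2 for K1 against input in control, 0 for the J2 difference and 3 for the K1 difference; the block changed no other call. Between genotypes one number marks different animals (correlation -0.0925 to 0.0252), and the block left the counts of changed sensors at 7, 3 and 6.

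Directions reversed only for values that had passed no test. For J2 in control these were Ddx58 at -0.13 and Tlr3 at -0.18 without TMM, Eif2ak2 at 0.04 and Zbp1 at 0.02 without a filter, Zbp1 at 0.06 with the block, and with 1 animal left out Eif2ak2 ran from -0.14 to 0.09 and Zbp1 from -0.17 to 0.34 (both highest without control animal 1). For J2 in DKO, Dhx58 was -0.31 without TMM, 0.00 without a filter, -0.02 with the block and -0.80 without DKO animal 1 (0.60 without DKO animal 2), and Mavs ran from -0.82 without DKO animal 1 to 0.11 without DKO animal 2. For K1 in control, Ifih1 was -0.08 (DESeq2 and its size factors), -0.18 (no TMM), -0.13 (no mitochondrial or ribosomal RNA) and -0.11 (thinned), Ddx58 -0.01, -0.12 and -0.06 in the first 3 of these, Zbp1 -0.10, -0.20, -0.15 and -0.15, Ifih1 -0.05 to 0.17 and Zbp1 -0.05 to 0.23 with 1 animal left out (both lowest without control animal 2), and Dhx58 0.05 with 12 libraries. For the J2 difference Dhx58 was -0.33 without DKO animal 1 and 0.93 without DKO animal 2. The causes were not tested.

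Without TMM the median of all genes moved from 0.00 to -0.13 in input, and higher calls from 52.4% to 42.1% of calls; the share moved from 49.4% to 32.7% in J2 and from 48.6% to 27.4% in K1, where the median moved from -0.02 to -0.39.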
